A study of Mus musculus with 6 samples.

Results

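Aminoacyl-tRNA synthetases join each amino acid to its matching tRNA, the step that lets the ribosome read the genetic code. In animal cells nearly every amino acid has a cytosolic enzyme and a separate mitochondrial enzyme, both encoded in the nucleus, and the mitochondrial set serves the few proteins translated inside the organelle. Many of the cytosolic genes are known targets of ATF4, the transcription factor that is translated when uncharged tRNA, or another stress, leads to phosphorylation of the initiation factor eIF2. Activated T cells make protein at a high rate and are known for raising their synthetases when they leave rest.

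The 36 genes described here are 20 cytosolic synthetase genes and 16 mitochondrial ones, taken by symbol from a table of 54532 genes. The table writes Mars for the methionyl enzyme called Mars1 here, and all 36 had a row. By name, the symbols ending in 2 were taken as mitochondrial and the rest as cytosolic. Gars and Kars stand among the cytosolic genes, although in mammals each is known to make the enzyme of both compartments. All 36 passed the filter on low values, a mean of at least 0.5 FPKM over the 6 samples, as did 12654 genes in all. FPKM are fragments per kilobase of gene length, scaled by a total for each library.

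The samples were CD8 T cells, the cytotoxic lineage, from spleen and lymph nodes of mice labelled as PTPMT1 KO (n = 3) or WT (n = 3). Both groups had been stimulated in culture for 3 days with beads carrying antibodies to CD3 and CD28. PTPMT1 is a mitochondrial phosphatase needed to make cardiolipin, a lipid of the inner mitochondrial membrane, and the comparison addresses what its loss changes in activated CD8 T cells. The labels give no age, strain, sex or allele, and do not say in which cells the gene was deleted or whether each replicate came from its own animal. The p-values below therefore rest on sample-to-sample spread that may be technical. In KO that spread also holds a difference in sex-linked reads, given below, between replicate 3 and the other libraries.

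Reads rebuilt from the FPKM steps totalled 14932604 to 16819913 per library, of which mitochondrial genes took 2.38% to 7.53% in KO and 3.38% to 4.76% in WT libraries. Ptpmt1 had 1.0004, 1.577 and 1.504 FPKM in KO replicates 1 to 3 and 3.75, 3.84 and 4.13 FPKM in WT replicates 1 to 3, with a log2 fold change of -1.26 (SE 0.198, limma adjusted p = 0.0884). Its groups did not overlap, and without KO replicate 3 the adjusted p was 0.0344. That library stood apart, with 1837 reads of Ddx3y, a gene on the Y chromosome, and 0 reads of Xist, which female cells use to silence an X chromosome. The other 5 libraries had 0 reads of Ddx3y and at least 3513 of Xist. Gamma-delta T cell markers summed to 174 FPKM in KO replicate 3, against 27.4 and 64.3 in KO replicates 1 and 2 and 26.4 to 52.8 in WT libraries. Of the 7 CD8 T cell markers, all detected in each library, 0 were higher on average in KO, and their summed level was 989 to 1752 FPKM in KO and 1543 to 1935 FPKM in WT libraries. Marker sums were 13.4 to 15.1 FPKM in KO and 18.7 to 25.0 FPKM in WT for B cells, 1.51 to 9.16 and 4.59 to 9.82 for myeloid cells, 19.5 to 32.5 and 20.2 to 30.4 for natural killer cells, 3.85 to 5.47 and 6.15 to 7.93 for CD4 T cells, and 4.50 to 10.4 and 2.50 to 7.001 for erythroid cells. Among the defining markers of these types Csf1r, Cd14 and Ncr1 were listed at 0 in at least 1 library. The part of other cells in the results below was not tested. In bulk samples, fewer cells of a type and less RNA per cell cannot be told apart.

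Because many of the members were higher together, their promoters were searched for a shared element. ATF4 pairs with C/EBP proteins on an element written TGATGNAA, where N is any base. It was searched for on both strands in RefSeq promoters of the mouse build GRCm38.p6, from 250 bases before to 50 after each annotated start. Promoters were held for 13 of the 20 cytosolic and 14 of the 16 mitochondrial genes. The element was present in 5 of those 13 cytosolic genes and in 0 of the 14 mitochondrial genes, and in 4.51% of the 27025 genes of the table, or 3.97% of its 32851 promoters. Of the 8576 genes tested that had a promoter, 2.8% held it. A window of each gene is shown because these 5 genes alone among the synthetases searched carry the element, each read 5′ to 3′ on the strand of its gene, with the element in capitals and positions counted from the RefSeq start as 1.
Aars, positions 10 to 17, chr8:111033841-111033868, plus strand: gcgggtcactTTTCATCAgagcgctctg
Gars, positions -30 to -23, chr6:55037961-55037988, plus strand: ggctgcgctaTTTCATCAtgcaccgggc
Iars, positions 8 to 15, chr13:49682127-49682154, plus strand: actgtcagtaTTGCATCAcctccagacg
Tars, positions -15 to -8, chr15:11399656-11399683, minus strand: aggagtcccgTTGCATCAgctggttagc
Yars, positions 4 to 11, chr4:129189896-129189923, plus strand: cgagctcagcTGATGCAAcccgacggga

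Yars carries the element as written and the other windows shown carry its reverse complement. These are matches of letters, not measured binding. In Gars the whole stretch before the start lies outside the exons of the GENCODE M21 annotation, and its 250 bases show the setting of the element, in capitals, next to the start (chr6:55037751-55038000, plus strand).
Gars, positions -250 to -1: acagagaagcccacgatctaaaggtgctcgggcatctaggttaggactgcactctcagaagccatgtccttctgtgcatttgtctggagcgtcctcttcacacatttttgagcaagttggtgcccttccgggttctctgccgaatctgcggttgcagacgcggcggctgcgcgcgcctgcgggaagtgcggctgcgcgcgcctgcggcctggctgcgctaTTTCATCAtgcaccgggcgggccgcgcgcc

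Messenger RNA of most cytosolic synthetases was at a higher level in KO than in WT cells. On the log2(FPKM + 0.5) scale, 17 of the 20 genes had a fold change above 0, as did 52.4% of all genes tested, and the median of the 20 was 0.73, against 0.031 for all genes. In 11 of the 20 every KO sample lay above every WT sample, against 14.5% of all genes, and 0 lay wholly below, against 13.3%. The same number, 11, had an unadjusted limma p under 0.05 and a higher level in KO, against 11.5% of all genes. By limma 0 of the 20 passed the threshold of an adjusted p under 0.05 over all genes, which 0.0395% of genes did, either way, and the smallest adjusted p was 0.0870; limma-voom on rebuilt reads also called 0. The mitochondrial set was less uniform: 13 of 16 had a fold change above 0, the median was 0.28, and 4 had an unadjusted p under 0.05 with a higher level in KO. In 1 of the 16, Fars2, the unadjusted p was under 0.05 and the level was lower in KO, as both were in 10.2% of all genes. The difference between the cytosolic and the mitochondrial median was not tested.

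**Figure D1:**
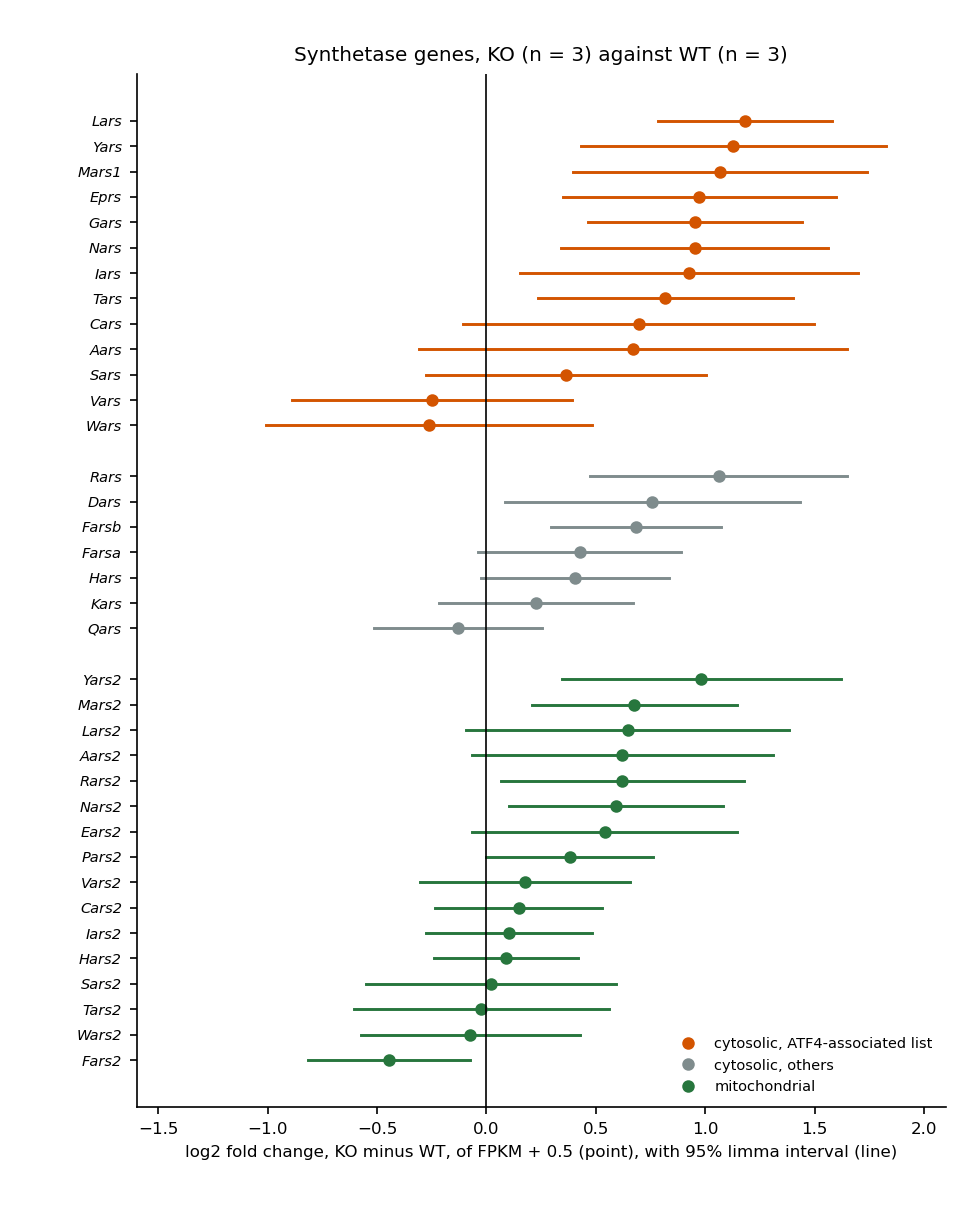
Log2 fold change of FPKM + 0.5, KO minus WT, of each synthetase gene (point) with the 95% interval of the limma fit (line), n = 3 samples per group, in 3 blocks for the ATF4-associated cytosolic, other cytosolic and mitochondrial genes. Cytosolic values run from -0.26 for Wars to 1.18 for Lars, and mitochondrial values from -0.45 for Fars2 to 0.98 for Yars2.

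The 8 cytosolic enzymes of the multisynthetase complex, in which several synthetases are held together by scaffold proteins, had a median log2 fold change of 0.95, and for 6 of them, each with a higher level in KO, the unadjusted p was under 0.05, against 11.5% of all genes. At equal FPKM totals, a rescaling described further on, 3 of the 8 were higher with such a p, against 3.83% of all genes. Lars (ENSMUSG00000024493, mm10 chromosome 18, 42202298 to 42262194, minus strand) charges leucine tRNA and is also known as a leucine sensor of the mTORC1 pathway. It had 60.1, 56.6 and 66.5 FPKM in KO replicates 1 to 3, against 28.8, 22.7 and 28.6 FPKM in WT replicates 1 to 3. The KO samples lay close together and none came near a WT sample. Its means were 61.0 ± 5.02 FPKM in KO and 26.7 ± 3.43 FPKM in WT (SD, n = 3 each), a log2 fold change of 1.18 (SE 0.168, limma adjusted p = 0.0870).

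Rars (chromosome 11, 35808381 to 35834506, minus strand), the arginyl enzyme, had 78.6, 102 and 53.4 FPKM in KO, against 35.8, 34.7 and 37.2 FPKM in WT samples. All WT values were alike, while KO replicate 2 was the highest and KO replicate 3 the lowest of the KO values. The KO minus WT difference was 1.06 on the log2 scale (SE 0.249, limma adjusted p = 0.107). Mars1 (chromosome 10, 127296221 to 127311786, minus strand) charges methionine tRNA, including the initiator that starts each protein. It had 32.6, 30.6 and 48.7 FPKM in KO, against 13.5, 15.1 and 24.7 FPKM in WT samples. The third replicate was the highest in both groups, and the groups did not overlap. Its difference on the log2 scale was 1.07 (SE 0.284, limma adjusted p = 0.1204). Mars1 shares 68 exon bases with Ddit3 on the opposite strand, and whether counting used strand is not given in the sources used here.

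Eprs (chromosome 1, 185363044 to 185428360, plus strand) encodes a fused enzyme that charges both glutamate and proline tRNA. It had 20.4, 13.9 and 26.9 FPKM in KO, against 9.39, 8.50 and 11.7 FPKM in WT samples, without overlap (log2 fold change 0.97, SE 0.263, limma adjusted p = 0.123). Iars, for isoleucine, averaged 23.5 ± 10.9 FPKM in KO and 11.5 ± 2.34 FPKM in WT, and Dars, for aspartate, averaged 73.3 ± 27.9 and 41.2 ± 3.92 FPKM (SD, n = 3 each). Both had groups that did not overlap, with limma adjusted p of 0.175 for Iars and 0.192 for Dars. Kars, for lysine, had means of 56.0 ± 9.65 FPKM in KO and 47.5 ± 4.30 FPKM in WT, which overlapped. Qars, for glutamine, was named after its values were seen, as a member of the complex that was not higher: it had 35.5, 36.6 and 28.1 FPKM in KO, against 36.2, 36.3 and 36.5 FPKM in WT samples (log2 fold change -0.13, 95% interval -0.52 to 0.25).

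The scaffold genes of the complex gave a similar picture. Eef1e1, also called AIMP3, had 23.8, 30.1 and 17.2 FPKM in KO, against 9.79, 6.90 and 10.4 FPKM in WT samples, and its log2 fold change of 1.33 (SE 0.254, limma adjusted p = 0.0887) was above that of each of the 36 synthetases. Aimp2 had 12.6, 10.8 and 13.8 FPKM in KO, against 5.39, 4.92 and 8.61 FPKM in WT samples (log2 fold change 0.95, SE 0.232, limma adjusted p = 0.110). Neither gene had overlapping groups. Aimp1 averaged 51.0 ± 27.4 FPKM in KO and 32.1 ± 6.51 FPKM in WT (SD, n = 3 each), and its groups overlapped.

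Of the 12 cytosolic genes outside the complex, 5 had groups that did not overlap, all higher in KO, against 14.5% of all genes. At equal FPKM totals 0 of the 12 did so. Gars (chromosome 6, 55038007 to 55079500, plus strand), the glycyl enzyme whose promoter is printed above, had 81.0, 67.9 and 101 FPKM in KO, against 38.4, 39.6 and 49.3 FPKM in WT samples. The lowest KO value was above the highest WT value. The KO minus WT difference was 0.95 on the log2 scale (SE 0.206, limma adjusted p = 0.09997). Nars, the asparaginyl enzyme, was the member of highest mean level, with 76.4, 62.9 and 121 FPKM in KO, against 39.6, 42.3 and 46.9 FPKM in WT samples. KO replicate 3 was far above the other KO samples, and all WT values lay below the KO values. Its difference on the log2 scale was 0.95 (SE 0.258, limma adjusted p = 0.123).

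Yars, the tyrosyl enzyme, had 15.8, 13.9 and 26.6 FPKM in KO, against 6.19, 7.77 and 10.5 FPKM in WT samples (log2 fold change 1.13, SE 0.294, limma adjusted p = 0.117). Farsb, the beta subunit of the phenylalanyl enzyme, had 52.5, 41.3 and 41.7 FPKM in KO, against 28.7, 25.8 and 28.7 FPKM in WT samples (log2 fold change 0.68, SE 0.164, limma adjusted p = 0.109). In both genes the groups stayed apart. Its alpha subunit Farsa, which pairs with Farsb in the working enzyme, averaged 18.5 ± 1.76 FPKM in KO and 13.8 ± 3.19 FPKM in WT and overlapped (SD, n = 3 each; log2 fold change 0.43). Tars, for threonine, averaged 22.6 ± 5.53 FPKM in KO and 12.6 ± 2.94 FPKM in WT without overlap (SD, n = 3 each; log2 fold change 0.82, SE 0.246, limma adjusted p = 0.142).

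Cars, the cysteinyl enzyme and the cytosolic member of lowest level, had 6.19, 5.69 and 12.5 FPKM in KO, against 3.69, 3.87 and 6.41 FPKM in WT samples. WT replicate 3 lay above 2 of the KO samples, and the limma adjusted p was 0.279. Aars, for alanine, averaged 17.3 ± 10.5 FPKM in KO and 9.73 ± 2.62 FPKM in WT, Hars, for histidine, 57.7 ± 6.80 and 43.6 ± 6.42 FPKM, and Sars, for serine, 40.1 ± 15.8 and 29.6 ± 1.70 FPKM (SD, n = 3 each). All 3 had overlapping groups. Aars shares 1326 exon bases with Exosc6 on the same strand, and Hars shares 195 with Hars2 on the opposite strand, so their counts are uncertain.

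Vars and Wars, named after their values were seen, were the other cytosolic members that were not higher. Vars, the valyl enzyme that associates with elongation factor 1, had 54.4, 40.2 and 73.6 FPKM in KO, against 53.4, 62.6 and 81.1 FPKM in WT samples (log2 fold change -0.25, 95% interval -0.89 to 0.39). Wars, the tryptophanyl enzyme and a known interferon-gamma-induced gene, had 35.8, 23.6 and 57.0 FPKM in KO, against 45.9, 47.8 and 38.5 FPKM in WT samples (log2 fold change -0.26, 95% interval -1.01 to 0.48). In Wars the KO values spread to both sides of the WT values, and without KO replicate 2 the log2 fold change was 0.044.

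**Figure D2:**
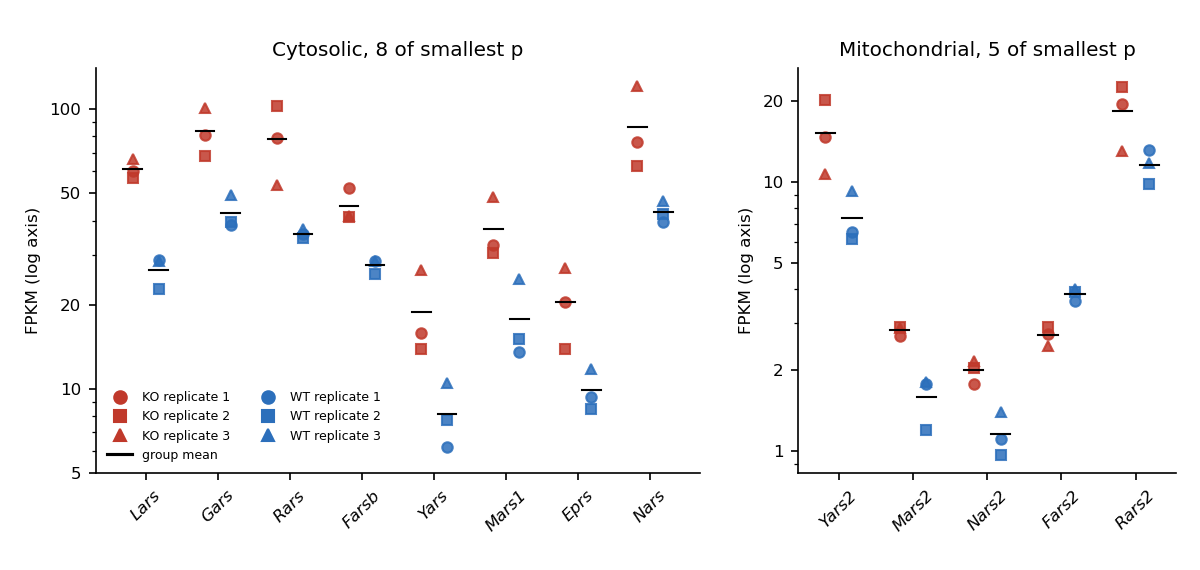
FPKM on a log axis of the 8 cytosolic and 5 mitochondrial genes of smallest p, KO left and WT right of each gene; symbols are replicates 1 to 3 and the short lines are group means. The groups are apart in all 8 cytosolic genes; among the mitochondrial genes Fars2 is lower in KO, and in Rars2 the value of 13.1 in KO replicate 3 is just under the highest WT value of 13.2.

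The KO libraries differed from each other, and not in the same way for all synthetases. A list of 13 cytosolic genes associated with ATF4 was drawn up from general knowledge, with Aars, Cars, Eprs, Gars, Iars, Lars, Mars1, Nars, Sars, Tars, Vars, Wars and Yars. Its membership was not taken from these files and was not checked against a source. Earlier results of these data were known when it was chosen. In all 13 of these genes KO replicate 3 was the highest KO library, against 42.0% of all genes tested, and in 12 of the 13 it was the highest of the 6 libraries. Longer genes tended to be higher in that library: the difference between KO replicate 3 and the mean of KO replicates 1 and 2 had a correlation with log2 gene length of 0.21 by Pearson and 0.28 by Spearman over 12654 genes, and of 0.33 and 0.45 over the 20 cytosolic members. These are descriptions across genes, which are not independent replicates. The median deposited gene length was 5272 bases for the 13 genes, 4358 for the other cytosolic members and 5603.5 for the mitochondrial members. For all genes tested it was 3565.5, and the part of length in the pattern was not tested. Relative to the WT mean, the median of the 13 was 0.83, 0.46 and 1.37 in KO replicates 1 to 3 and -0.11, -0.18 and 0.30 in WT replicates 1 to 3, on the log2(FPKM + 0.5) scale. The other 7 cytosolic genes, Dars, Farsa, Farsb, Hars, Kars, Qars and Rars, had medians of 0.47, 0.33 and 0.54 in KO and -0.0056, -0.080 and 0.13 in WT replicates 1 to 3, and KO replicate 3 was the highest KO library in 3 of them. For the mitochondrial genes the medians were 0.37, 0.14 and 0.29 in KO and -0.10, -0.067 and 0.18 in WT replicates, and KO replicate 3 was the highest KO library in 6 of 16.

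The level of Atf4 itself was 113, 95.3 and 157 FPKM in KO replicates 1 to 3, against 56.1, 55.6 and 66.5 FPKM in WT replicates 1 to 3 (log2 fold change 1.002, SE 0.225, limma adjusted p = 0.105). Within each group the third replicate was the highest, as it was for the median of the 13 genes. The median of the other 7 cytosolic genes also had that order, so it was not particular to the list. The 5 genes with the promoter element, all among the 13, had log2 fold changes of 0.67 for Aars, 0.95 for Gars, 0.92 for Iars, 0.82 for Tars and 1.13 for Yars. Eprs, Mars1 and Sars, whose promoters in the same table had no match in this window, had 0.97, 1.07 and 0.36. KO replicate 3 is also the library with Ddx3y reads and the highest gamma-delta markers, and the part of either in these levels was not tested. The median log2 fold change of the 13 was 0.92 with that library and 0.65 without it, and that of all genes was 0.030 without it.

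**Figure D3:**
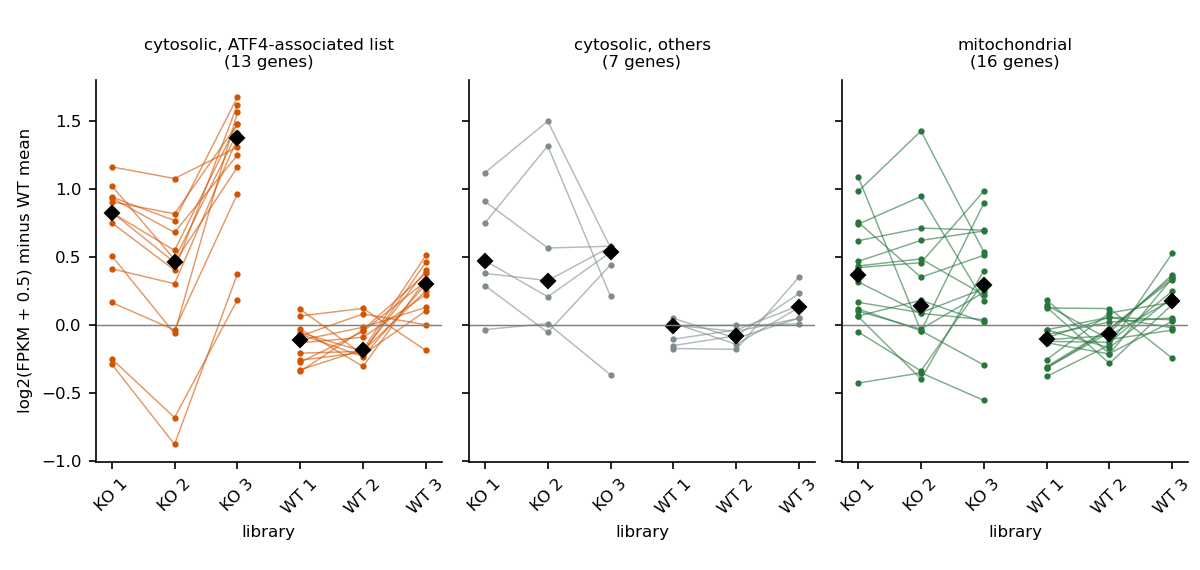
Level of each synthetase gene in each library, as log2(FPKM + 0.5) minus its WT mean; thin lines join the replicates of a gene within a group, with no order implied, and black diamonds are medians over the genes. The diamonds of the ATF4-associated list stand at 0.83, 0.46 and 1.37 in KO libraries, and those of the mitochondrial genes at 0.37, 0.14 and 0.29.

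Leaving out KO replicate 3, the library with Ddx3y reads, let part of the genes pass the threshold. Leaving out any other sample let 0 synthetase genes pass. In that fit of 2 KO and 3 WT samples, 6 of 20 cytosolic and 2 of 16 mitochondrial genes had an adjusted p under 0.05, all higher in KO, against 8.12% of all genes called higher and 5.58% called lower. Among cytosolic genes, Lars rose by 1.12 and Rars by 1.31 on the log2 scale (limma adjusted p = 0.0344 for both), Dars by 1.03 (0.0375), Farsb by 0.74 and Gars by 0.81 (0.0404 for both), and Nars by 0.69 (0.0431). Among mitochondrial genes, Yars2 rose by 1.20 (limma adjusted p = 0.0364) and Rars2 by 0.84 (0.0377). The limma adjusted p without that library was 0.0610 for Yars, 0.0794 for Mars1, 0.0731 for Eprs and 0.115 for Iars. Aars was at 0.22 and Sars at 0.064 on the log2 scale without that library, against 0.67 and 0.36 with it.

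Mitochondrial synthetases were at lower levels than cytosolic ones in these cells, with mean FPKM of 1.499 to 34.5 over the 6 samples, against 6.39 to 64.8 for the cytosolic set. Yars2 (chromosome 16, 16302965 to 16309640, plus strand), the mitochondrial tyrosyl enzyme, had the largest fold change of the set. It had 14.8, 20.3 and 10.7 FPKM in KO, against 6.56, 6.16 and 9.31 FPKM in WT samples. The KO values lay above the WT values, although KO replicate 3 was close to WT replicate 3. The KO minus WT difference was 0.98 on the log2 scale (SE 0.269, limma adjusted p = 0.124).

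Mars2 had 2.69, 2.90 and 2.87 FPKM in KO, against 1.77, 1.21 and 1.81 FPKM in WT samples (log2 fold change 0.68, SE 0.198, limma adjusted p = 0.135). Nars2 had 1.79, 2.05 and 2.17 FPKM in KO, against 1.11, 0.972 and 1.41 FPKM in WT samples (log2 fold change 0.59, SE 0.207, limma adjusted p = 0.171). These enzymes charge methionine and asparagine tRNA in the organelle, and in both genes all KO samples were above all WT samples. Rars2, for arginine, had 19.6, 22.7 and 13.1 FPKM in KO, against 13.2, 9.89 and 11.8 FPKM in WT samples (log2 fold change 0.62, SE 0.235, limma adjusted p = 0.193). As in the cytosolic Rars, KO replicate 2 was highest and KO replicate 3 lowest of the KO samples.

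Fars2 (chromosome 13, 36117412 to 36726280, plus strand), the single-chain phenylalanyl enzyme of mitochondria, went the other way. It had 2.73, 2.90 and 2.46 FPKM in KO, against 3.63, 3.91 and 4.003 FPKM in WT samples. All KO values lay below all WT values, with means of 2.70 ± 0.224 and 3.85 ± 0.192 FPKM (SD, n = 3 each). Its difference on the log2 scale was -0.45 (SE 0.157, limma adjusted p = 0.174), and with a sample left out it ranged from -0.49 to -0.39. The gene shares 501 exon bases with Nrn1 and 115 with Lyrm4 on the opposite strand.

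Lars2, the mitochondrial leucyl enzyme and the mitochondrial member of highest level, had 55.4, 25.0 and 48.4 FPKM in KO, against 28.2, 28.1 and 21.7 FPKM in WT samples. KO replicate 2 lay among the WT values while the other KO samples were well above them (log2 fold change 0.65, SE 0.312, limma adjusted p = 0.276). Leaving out KO replicate 1 gave a log2 fold change of 0.42, and leaving out KO replicate 2 gave 0.99. Ears2, the mitochondrial glutamyl enzyme and the member of lowest level, had 2.22, 1.55 and 1.80 FPKM in KO, against 0.794, 1.05 and 1.58 FPKM in WT samples. WT replicate 3 was just above KO replicate 2. Pars2, for proline, averaged 5.50 ± 0.571 FPKM in KO and 4.11 ± 0.422 FPKM in WT without overlap (SD, n = 3 each; log2 fold change 0.38, limma adjusted p = 0.231). Aars2, for alanine, had 3.19, 3.28 and 4.94 FPKM in KO, against 1.61, 1.98 and 3.47 FPKM in WT samples, where WT replicate 3 lay above 2 of the KO samples (log2 fold change 0.62, limma adjusted p = 0.263).

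The remaining 7 mitochondrial genes differed by at most 0.17 on the log2 scale and all had overlapping groups. They were Cars2 (log2 fold change 0.15), Hars2 (0.089), Iars2 (0.10), Sars2 (0.021), Tars2 (-0.024), Vars2 (0.17) and Wars2 (-0.073). Their 95% intervals reached from -0.61 at the lowest, for Tars2, to 0.65 at the highest, for Vars2. Cars2, Hars2, Iars2, Sars2 and Vars2 were below 0 when each sample was rescaled to the same FPKM total, a scaling that moved the median of all genes to -0.20. Iars2 shares 2034 exon bases with Rab3gap2 on the opposite strand.

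That rescaling bears on the whole set. At equal totals the median log2 fold change was 0.47 for the cytosolic and 0.035 for the mitochondrial genes. Relative to the median of all genes the values were 0.67 and 0.24, against 0.70 and 0.25 as deposited. Of the cytosolic genes 16 of 20 then had a fold change above 0, against 34.3% of all genes, and 3 had an unadjusted p under 0.05 with a higher level, against 3.83%. At equal totals the groups did not overlap, with KO higher, in 3 cytosolic and 2 mitochondrial genes, against 5.7% of all genes. Of the mitochondrial genes 8 of 16 were above 0 and 1 had such a p. Another scaling, by the median ratio of a sample's genes to their geometric mean over samples, used factors of 0.998 to 1.016. It gave medians of 0.72 for the cytosolic and 0.27 for the mitochondrial genes. At that scaling 11 cytosolic and 4 mitochondrial genes had an unadjusted limma p under 0.05 with a higher level in KO. The share of all genes that did so at that scaling was not computed.

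A ratio of 2 genes within a library hardly depends on the scaling between libraries. The cytosolic over mitochondrial ratio was therefore taken for 17 pairs of genes that serve the same amino acid, with Eprs set against both Ears2 and Pars2 and both phenylalanyl subunits against Fars2, so that some pairs share a gene. On the log2 scale the KO minus WT difference was above 0 in 15 pairs, and its median was 0.43. In 5 pairs the ratio was higher in all KO samples than in all WT samples, and in 1 pair it was lower. Among all single genes tested, 14.5% were higher and 13.3% lower in KO without overlap. No such share was computed for ratios of other gene pairs. An exact 2-sided permutation test over samples gave p = 0.1 for those 6 pairs, the smallest that 3 against 3 samples allow, and 0.283 after adjustment over the 17 pairs.

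The largest differences were those of Farsb and Farsa over Fars2, at 1.13 and 0.87, where the cytosolic genes were higher and Fars2 lower in KO. The Tars over Tars2 log2 ratio was 1.79, 1.70 and 1.75 in KO, against 1.19, 0.63 and 0.89 in WT samples, a difference of 0.84 with a narrow spread among KO samples. Iars over Iars2 differed by 0.82 and Rars over Rars2 by 0.44, both without overlap. Vars over Vars2 was the pair that was lower, with log2 ratios of 3.50, 3.15 and 3.84 in KO, against 3.95, 3.90 and 3.91 in WT samples. For tyrosine, where both genes were higher in KO, the ratio differed by 0.15 and the groups overlapped; without KO replicate 3 the difference was -0.35. Without KO replicate 3 the median over pairs was 0.22, and 13 of 17 were above 0.

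**Figure D4:**
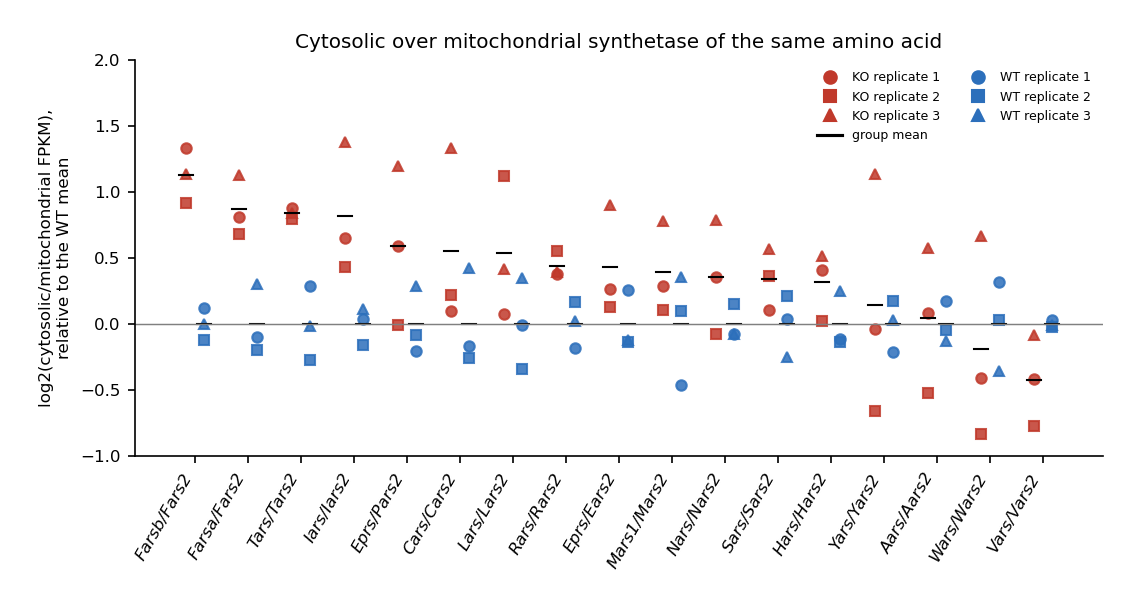
Log2 ratio of cytosolic to mitochondrial FPKM (each + 0.5) for 17 gene pairs, relative to the WT mean of the pair, with KO left and WT right; symbols are replicates 1 to 3 and short lines are group means. Pairs are ordered by the KO minus WT difference, from 1.13 for Farsb over Fars2 to -0.42 for Vars over Vars2.

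Other genes of tRNA charging were described from lists with 39 genes in all, of which 38 passed the filter on low values; Aarsd1 did not. Of the 38, 37 had a fold change above 0 (the exception was Eef2), against 52.4% of all genes, and the median was 0.37. An unadjusted p under 0.05 with a higher level in KO was found for 14, against 11.5% of all genes, and with a lower level for 0, against 10.2%. By limma 0 of them had an adjusted p under 0.05. At equal totals 25 of the 38 were above 0, against 34.3% of all genes.

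Of 7 genes of tRNA maturation and export, 5 were higher in KO with an unadjusted p under 0.05, against 11.5% of all genes, and the median log2 fold change was 1.11. At equal FPKM totals 3 of the 7 were, against 3.83% of all genes. Pop1 and Rpp30 are subunits of ribonuclease P, which trims the leader of tRNA precursors. Pop1 had 13.0, 9.999 and 12.1 FPKM in KO, against 4.26, 3.62 and 7.73 FPKM in WT samples, and Rpp30 had 57.7, 92.4 and 31.5 FPKM in KO, against 26.3, 20.5 and 21.9 FPKM in WT samples. Both had groups that did not overlap, with limma adjusted p of 0.109 for Pop1 and 0.136 for Rpp30. Xpot, the tRNA exporter of the nucleus, was named after its values were seen; it had 19.6, 16.0 and 37.7 FPKM in KO, against 9.28, 7.998 and 13.5 FPKM in WT samples. In Xpot KO replicate 3 was the highest library, whereas in Rpp30 it was the lowest of the KO samples.

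Of 5 genes of editing and rescue that were tested, 2 had an unadjusted p under 0.05, both higher in KO, against 11.5% of all genes. At equal FPKM totals 1 of the 5 was higher with such a p, against 3.83% of all genes. Among the 2 was Ptrh2, a peptidyl-tRNA hydrolase, which averaged 25.3 ± 10.5 FPKM in KO and 12.1 ± 1.06 FPKM in WT (SD, n = 3 each). The genes that make charged tRNA in mitochondria by other routes had a median of 0.19 over 4 genes; Gatb, of the amidotransferase that makes glutamine tRNA there, averaged 4.51 ± 0.509 FPKM in KO and 3.16 ± 0.111 FPKM in WT, and Qrsl1 of the same enzyme 4.12 ± 0.364 and 3.51 ± 0.531 FPKM. Of 4 mitochondrial elongation factors 1, Tsfm, had an unadjusted p under 0.05 and was higher in KO, against 11.5% of all genes. At equal FPKM totals 0 of the 4 were higher with such a p. Tsfm was at 10.4 ± 1.32 FPKM in KO and 6.48 ± 1.84 FPKM in WT, while Gfm1 was at 18.3 ± 3.60 and 13.2 ± 1.60 FPKM.

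The cytosolic elongation factors, which carry charged tRNA to the ribosome and move it along, had a median log2 fold change of 0.043 (5 genes). Of the 5, 0 had an unadjusted p under 0.05, against 11.5% of all genes with a higher and 10.2% with a lower level. Eef1d averaged 43.3 ± 3.42 FPKM in KO and 35.9 ± 2.60 FPKM in WT, and Eef2 averaged 1444 ± 269 and 1866 ± 127 FPKM (SD, n = 3 each). Of 4 genes of selenocysteine tRNA and its use 0 had such a p, and the median was 0.21; Sephs2 was at 24.0 ± 2.22 FPKM in KO and 18.3 ± 5.79 FPKM in WT, and Pstk at 2.79 ± 0.768 and 2.15 ± 0.279 FPKM.

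Sensing of uncharged tRNA runs through the kinase GCN2, encoded by Eif2ak4, its partner GCN1 (Gcn1l1 in the table) and the inhibitor IMPACT. Of these and Atf4, 2 of 4 had an unadjusted p under 0.05, Atf4 and Impact, both higher in KO, against 11.5% of all genes. At equal FPKM totals 0 of the 4 were higher with such a p. Impact had 10.3, 12.3 and 9.82 FPKM in KO, against 7.03, 7.19 and 6.06 FPKM in WT samples (log2 fold change 0.64, SE 0.161, limma adjusted p = 0.113). Eif2ak4 differed by 0.14 and Gcn1l1 by 0.039 on the log2 scale, with overlapping groups. Of the synthetase genes outside the 36, Tarsl2 averaged 2.23 ± 0.214 FPKM in KO and 1.36 ± 0.321 FPKM in WT (SD, n = 3 each; limma adjusted p = 0.189).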

How the data were processed

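RNA sequencing values were deposited as FPKM, per the file headers, for 54532 genes in 3 KO and 3 WT samples. They were scaled to gene length and to a total for each library that differed from the sum of its rebuilt reads. The notes name HISAT2 2.0.5, Trim Galore, DESeq2, featureCounts 1.5.0-p3 and the build mm10 without roles, per the submitters' processing notes; libraries were stranded mRNA preparations, per the labels' protocols. Multiplied by the deposited gene length, FPKM values gave whole reads (to within 0.05) in at least 99.9982% of cases in each library. Reads rebuilt that way were summed; the total behind the FPKM was 0.780 to 1.10 times that sum, lowest in KO replicate 2 and highest in KO replicate 3. Genotype was tested with limma 3.58.1 (R 4.3.3) on log2(FPKM + 0.5), with a mean-variance trend, no covariate, and Benjamini-Hochberg adjustment over 12654 genes of mean FPKM at least 0.5. Fold changes on this scale understate those of low genes. The step was tested on simulated data. Alternatives changed pseudocount, filter, scaling, variance model, sample weights, replicate block, test on rebuilt reads and samples. Coordinates are GENCODE M21 (mm10), counted from 1.

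Members and lists were chosen with earlier results of these data known. Values per sample are given for Ptpmt1, the 8 cytosolic and 5 mitochondrial members of smallest p, the 2 highest and 1 lowest of each compartment by mean FPKM, members that go against their compartment's median without overlap, and up to 2 genes of smallest p in each related list, in full or as means. Outside this rule, Qars, Vars, Wars, Aars2, Aimp1, Xpot, Eif2ak4 and Gcn1l1 were given values after these had been seen. Tables and plots were made with matplotlib 3.10.9, scipy 1.17.1 and pandas 2.3.3 under Python 3.11.15. A few genes and sequences are not reported here.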

Additional observations from a re-analysis of the deposited data

How the results depend on the processing

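None of the 36 members had an adjusted p under 0.05 in limma as reported, and 16 had an unadjusted p under 0.05. Among the 16, 11 cytosolic and 4 mitochondrial genes were higher in KO, against 11.5% of all genes. The other, 1 mitochondrial gene, was lower, against 10.2% of all genes. The cytosolic and mitochondrial medians were above 0 in each alternative run. The lowest member, Ears2, had at least 67 rebuilt reads per library, so its values carry wider counting error than the rest; 3 samples per group limit all. The genes called over the whole table were 5 as reported, 3 with no filter on low values, 3 with a pseudocount of 1, 14 without the mean-variance trend and 1 by limma-voom on rebuilt reads. Leaving out each sample in turn gave 2 to 1733 genes over the whole table, 0 to 6 cytosolic and 0 to 2 mitochondrial genes; the high ends were without KO replicate 3. Cytosolic genes with a higher level and an unadjusted p under 0.05 numbered 8 to 13, and mitochondrial ones 2 to 5, the 2 without WT replicate 2. Over all genes the share that did so was 11.5% as reported and was not computed with a sample left out. The cytosolic median was 0.61 to 0.90, the mitochondrial one 0.24 to 0.35 and the pair ratio 0.22 to 0.55. Estimated sample weights put 9.10 on KO replicate 1 and 0.19 to 2.50 on the others, and called 6710 of the 12654 genes tested, either way. That fit called 17 of 20 cytosolic genes, with Wars lower in KO, and 10 of 16 mitochondrial genes, with Fars2 lower in KO. In that fit 10 mitochondrial genes were higher at an unadjusted p under 0.05, for which no share over all genes was computed. These calls rest mostly on 1 KO library. At equal FPKM totals, 3 cytosolic and 1 mitochondrial gene were higher at an unadjusted p under 0.05, against 3.83% of all genes. There the mitochondrial median was 0.0353, and Kars (-0.0431), Cars2 (-0.0912), Hars2 (-0.16), Iars2 (-0.16), Sars2 (-0.22) and Vars2 (-0.0645) changed sign. The cause was not tested. With sample weights Tars2 was at 0.0594 and Wars2 at 0.14. With a sample left out, Wars ranged from -0.58 to 0.0435, Sars2 from -0.17 to 0.23, Tars2 from -0.19 to 0.15 and Wars2 from -0.20 to 0.0377, all changing sign. Same-numbered KO and WT samples deviated together with correlations of 0.132, 0.0665 and 0.331, and differently numbered ones with correlations from -0.307 to 0.267. The numbers were not taken to pair the samples, which these values do not settle. With a replicate block 12 genes were called over the whole table, 0 of them synthetases. With that block 14 cytosolic genes had a higher level and an unadjusted p under 0.05, for which no share over all genes was computed.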
